A study of Mus musculus with 7 samples.

Results

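Regions of mouse liver chromatin that carried a DNase I hotspot and a hotspot of exactly one of the other enzymes, Benzonase or Cyanase, are described here. The regions were chosen by the presence of hotspots in 3 deposited lists: hotspots on chromosomes 1 to 19 that overlapped by at least 1 bp were joined into regions, and those with DNase I and a single partner were kept. There were 4994 such regions among 67342 regions with a DNase I hotspot (7.42%, 95% Wilson interval 7.22 to 7.62) and 90879 regions in all. The partner was Benzonase in 3200 regions (4.75%, 4.59 to 4.92) and Cyanase in 1794 regions (2.66%, 2.55 to 2.79). These groups are called the Benzonase-partner and the Cyanase-partner regions. The remaining DNase I regions had no partner (25405, 37.7%) or held hotspots of all 3 enzymes (36943, 54.9%).

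All samples were liver of 8-week-old male C57BL/6 mice. Benzonase and Cyanase were applied to pulverized frozen tissue, with 1 sample each at 0.25, 1 and 4 U, and DNase I was applied to nuclei purified from fresh liver. The labels list 1 DNase I sample, while the header of its list names 2 libraries. Since the material and the enzyme changed together, effects of DNase I and of fresh nuclei cannot be told apart, whereas Benzonase and Cyanase shared the frozen material and the range of doses. Each list pools the libraries of its enzyme and holds positions only, so no spread between animals and no depth per hotspot can be given. The intervals below cover counting error, or the spread over regions, within these lists.

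DNA that is wrapped around nucleosomes is largely protected from nucleases, and promoters, enhancers and other regulatory elements bound by transcription factors are cut more readily. A hotspot is a stretch in which the ends of released fragments accumulate above the local background. DNase I has been the usual probe for such sites, and Benzonase and Cyanase are endonucleases that tolerate detergent. Each nuclease has its own preferences for DNA sequence and shape, and liver regulatory elements differ in base composition, from GC-rich promoters to AT-richer enhancers.

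To show what the regions look like, 150 bp around the middle of the overlap of the hotspots are printed for members at genes of fixed liver gene lists, taken by the length of the overlap (mm9). The printed windows hold no annotated exon, although the whole region may, as at Abcc2. Capitals mark matches to the fixed motifs given further below. The first 4 come from Benzonase-partner regions. They lie in Abcc2, which encodes an efflux pump of the bile canaliculus, in Slco1a1, an uptake transporter of organic anions, in Slc2a2, the hepatocyte glucose transporter GLUT2, and in Pecam1, which encodes the endothelial surface protein CD31.
Abcc2, chr19:43886048-43886197, plus strand: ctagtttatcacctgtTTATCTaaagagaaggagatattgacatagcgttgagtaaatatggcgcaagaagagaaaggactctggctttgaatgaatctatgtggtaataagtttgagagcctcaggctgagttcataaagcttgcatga
Slco1a1, chr6:141892637-141892786, plus strand: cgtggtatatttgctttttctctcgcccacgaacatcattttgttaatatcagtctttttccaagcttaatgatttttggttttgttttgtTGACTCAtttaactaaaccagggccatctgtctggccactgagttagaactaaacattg
Slc2a2, chr3:28598625-28598774, plus strand: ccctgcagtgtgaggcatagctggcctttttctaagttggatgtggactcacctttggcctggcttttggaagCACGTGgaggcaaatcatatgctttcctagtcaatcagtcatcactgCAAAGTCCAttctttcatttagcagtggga
Pecam1, chr11:106559748-106559897, plus strand: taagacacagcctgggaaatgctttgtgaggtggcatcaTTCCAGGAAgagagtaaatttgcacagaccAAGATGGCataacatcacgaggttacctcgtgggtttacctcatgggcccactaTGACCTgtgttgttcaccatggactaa
The Slc2a2 window held an HNF4 match (CAAAGTCCA) and an E-box (CACGTG), and the Slco1a1 window held an AP-1 match. The other 4 come from Cyanase-partner regions. They lie upstream of Serpina1a, an alpha-1 antitrypsin gene, upstream of Cyp2e1, which encodes an ethanol-metabolising cytochrome P450, in Rora, a nuclear receptor gene, and in Lyve1, a marker of sinusoidal endothelium.
Serpina1a, chr12:105105260-105105409, plus strand: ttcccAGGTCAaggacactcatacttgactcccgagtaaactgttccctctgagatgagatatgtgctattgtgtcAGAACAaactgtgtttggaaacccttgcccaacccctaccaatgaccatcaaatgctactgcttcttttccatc
Cyp2e1, chr7:147946686-147946835, plus strand: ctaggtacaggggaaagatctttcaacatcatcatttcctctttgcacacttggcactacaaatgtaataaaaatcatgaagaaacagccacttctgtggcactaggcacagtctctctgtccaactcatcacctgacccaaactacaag
Rora, chr9:68804928-68805077, plus strand: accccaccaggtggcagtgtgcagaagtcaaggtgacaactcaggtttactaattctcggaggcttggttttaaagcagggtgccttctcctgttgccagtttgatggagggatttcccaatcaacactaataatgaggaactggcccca
Lyve1, chr7:117998790-117998939, plus strand: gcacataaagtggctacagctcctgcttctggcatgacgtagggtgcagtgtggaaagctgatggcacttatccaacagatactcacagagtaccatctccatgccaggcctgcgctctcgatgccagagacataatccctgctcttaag
No fixed motif was matched in the windows at Cyp2e1, Rora and Lyve1, which says only that those letters were absent from these bases. Serpina1a belongs to a family of near-identical gene copies, so the placement of tags there is uncertain.

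Benzonase partners outnumbered Cyanase partners 1.78 to 1. The Benzonase list (59040 hotspots on chromosomes 1 to 19) was 1.06 times as long as the Cyanase list (55904). The list ratio includes hotspots of regions with both enzymes (36943 with DNase I and 9207 without), which the partner ratio leaves out. These ratios thus have unlike bases. Among regions without DNase I, those of Benzonase alone (8301) outnumbered those of Cyanase alone (6029) 1.38 to 1. Benzonase-partner regions were the more numerous on 19 of 19 chromosomes. The ratio was lowest on chromosome 17 (99 against 77 regions, 1.29) and highest on chromosome 8 (195 against 80, 2.44). Per DNase I region, the Benzonase-partner share ran from 3.67% on chromosome 17 to 5.74% on chromosome 13, and the Cyanase-partner share from 2.15% on chromosome 11 to 3.23% on chromosome 15.

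Nearly every member was a simple pair, with 1 DNase I and 1 partner hotspot in 3166 of the Benzonase-partner regions (98.9%) and 1783 of the Cyanase-partner regions (99.4%). The following widths and distances come from the positions that defined the groups and are given as a description. The DNase I hotspot had a median width of 608 bp in the Benzonase-partner and 605 bp in the Cyanase-partner regions, between the 551 bp of regions of DNase I alone and the 760 bp of regions with all 3 enzymes. The partner hotspot was narrower, at 446 bp for Benzonase and 436 bp for Cyanase. In regions with all 3 enzymes the same enzymes gave 790 and 745 bp, and in regions without any other enzyme 369 and 357 bp. Partner hotspots were thus narrower than those of the same enzyme in regions with all 3. The partner covered a median of 67.3% of the DNase I bases in the Benzonase-partner and 67.8% in the Cyanase-partner regions.

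**Figure D1:**
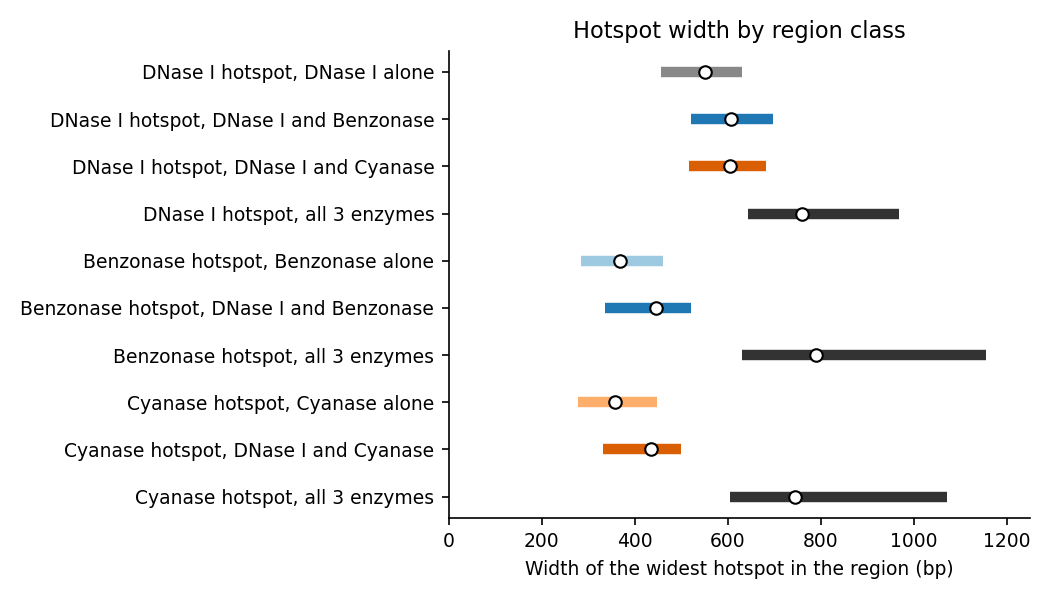
Width in bp of the widest hotspot of each enzyme in a region, by region class. Bars span the quartiles over regions and circles mark medians. Hotspots of regions with a single partner, in blue for Benzonase and orange for Cyanase, lie between those of 1 enzyme alone and those of all 3 enzymes.

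Close to the threshold of the rule, 25 Benzonase-partner and 8 Cyanase-partner regions shared at most 50 bp with their partner, and the smallest overlaps were 1 and 18 bp. Just outside it, 159 regions of DNase I alone had a Benzonase hotspot within 50 bp and 103 had a Cyanase hotspot within 50 bp. The nearest hotspot of the missing enzyme lay at a median distance of 5724 bp from Benzonase-partner regions and 5538 bp from Cyanase-partner regions. It lay within 150 bp in 3.06% and 3.90% and within 1 kb in 19.4% and 19.6%. A second hotspot of the partner enzyme was about as far away, at 5419 and 5852 bp.

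Members of the groups also lay apart from one another. The median distance to the nearest region of the same group was 154 kb for Benzonase partners and 319 kb for Cyanase partners, and 10.9% of all members had another member of either group within 10 kb. The gene models with the most members were long ones. Gm20388, a 4435 kb model on chromosome 8 that spans many other genes, held 12 Benzonase-partner and 6 Cyanase-partner regions. Zbtb20 (767 kb), which encodes a zinc finger repressor of liver genes, held 7 and 1, and 1700112E06Rik (1036 kb) held 5 and 1. The opposite split was seen at Dlc1 (385 kb), a tumour suppressor gene, and at Cfhr2 (214 kb), a complement factor H-related gene, each with 0 Benzonase-partner and 4 Cyanase-partner regions. Cfhr2 lies among related gene copies, and none of these counts was tested.

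To ask where in the genome a single partner occurs, regions were assigned to promoters (2 kb upstream of a protein-coding TSS), exons, introns, 2 kb downstream of genes or distal sequence, in that order. Both groups had the distribution of distal elements. Introns held 43.8% of the Benzonase-partner and 42.9% of the Cyanase-partner regions, distal sequence 40% and 42.3%, exons 8.00% and 6.86%, and downstream sequence 1.66% and 1.84%. Promoters held 6.56% (5.76 to 7.47) and 6.08% (5.06 to 7.28), a difference of 0.487 percentage points whose 95% Newcombe interval (-0.961 to 1.85) held 0. The intervals of the other 4 differences held 0 as well. When hotspots below the lower quartile of width were left out, the promoter difference became 2.86 percentage points (1.16 to 4.43), and with an overlap of 50% of both hotspots required it reversed to -3.76.

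Regions with all 3 enzymes were promoters in 30% of cases, 23.4 percentage points (22.4 to 24.4) more often than Benzonase-partner and 23.9 (22.6 to 25) more often than Cyanase-partner regions. Regions of DNase I alone were promoters in 4.54% of cases, which was below both the Benzonase-partner (difference 2.02, 1.17 to 2.96) and the Cyanase-partner regions (1.53, 0.485 to 2.76). Seen from the annotation, a single partner was found in 2.54% of DNase I regions at promoters, against 8.26% in exons, 8.88% in introns and 8.30% in distal sequence. A protein-coding TSS lay inside 84 Benzonase-partner (2.62%) and 41 Cyanase-partner regions (2.29%), compared with 0.913% of regions of DNase I alone and 26.8% of regions with all 3 enzymes. The TSS-spanning members with the longest unbroken stretch of overlap were at alternative starts in Foxp2, Ccdc19 and Trio with Benzonase and at Vwa5a, Tbxas1 and Gm5069 with Cyanase. Foxp2 encodes a forkhead factor, Trio a guanine nucleotide exchange factor and Tbxas1 thromboxane synthase.

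**Figure D2:**
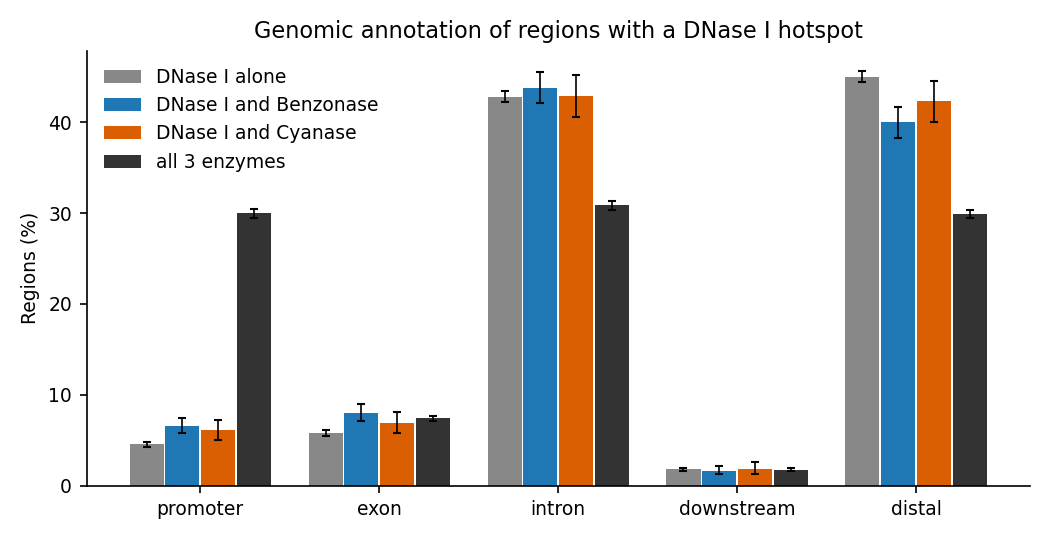
Percentage of regions in each annotation class for the 4 classes of regions with a DNase I hotspot. Error bars are 95% Wilson intervals. The regions with a single partner (blue, orange) overlap each other in every class, and their promoter shares of 6.56% and 6.08% are far below the 30% of regions with all 3 enzymes.

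The base composition of single-partner regions lay between that of the other DNase I regions. Mean GC content was 45.7% (SD over regions 5.0) in Benzonase-partner and 45.2% (SD 5.03) in Cyanase-partner regions, against 42.5% in regions of DNase I alone and 50% in regions with all 3 enzymes. Both groups lay between these classes on 19 of 19 chromosomes. Benzonase-partner regions exceeded those of DNase I alone by 3.24 percentage points (3.06 to 3.43) and Cyanase-partner regions did so by 2.71 (2.47 to 2.96). By contrast, hotspots that occurred without DNase I were GC-richer still, with 54.3% for Benzonase alone and 53.6% for Cyanase alone.

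The Benzonase-partner regions were the GC-richer of the pair by 0.529 percentage points (0.239 to 0.819), a small part of the SD within either group. The direction was seen on 16 of 19 chromosomes. The interval held 0 within introns (0.394, -0.0285 to 0.817) and within exons (0.512, -0.674 to 1.70). It left out 0 within promoters (1.64, 0.268 to 3.02) and within distal sequence (0.457, 0.0111 to 0.903). The sign reversed when hotspots had to overlap by 50% of both (-0.507, -0.832 to -0.183). That rule brings in other regions: 556 of its 1910 Cyanase-partner regions (29.1%) and 440 of its 2818 Benzonase-partner regions (15.6%) held all 3 enzymes under the 1 bp rule. Those 556 regions had a mean GC content of 50.4%, while the 1354 that were Cyanase-partner regions under both rules had 45.3%. The 440 regions had 47.5%, while the 2378 that were Benzonase-partner regions under both rules had 46%.

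The sequence 5 kb to either side differed little, with 44.1% GC beside Benzonase-partner and 44% beside Cyanase-partner regions (difference 0.106, -0.124 to 0.335). GC content exceeded that of the flanks in 66.4% of Benzonase-partner and 61.3% of Cyanase-partner regions, compared with 44.7% of regions of DNase I alone and 78.6% of regions with all 3 enzymes. In the 100 bp bin to the left of the middle of the DNase I hotspot, mean GC content was 46.5% with a Benzonase partner, 46.3% with a Cyanase partner, 42.8% without a partner and 52.3% with both.

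**Figure D3:**
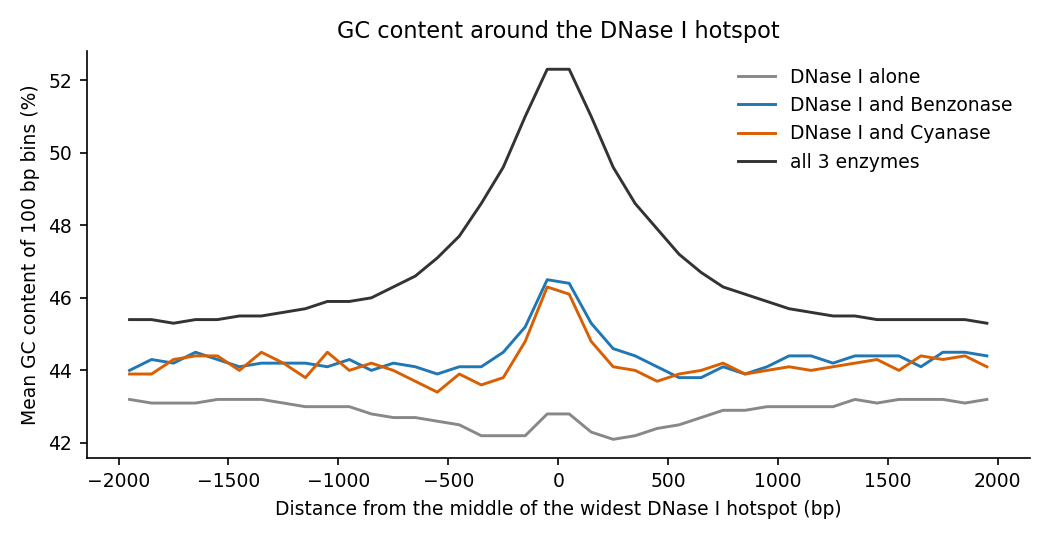
Mean GC content in 100 bp bins up to 2000 bp on either side of the middle of the widest DNase I hotspot, for the 4 classes. Single-partner regions (blue, orange) have a narrow GC peak of about the same height, below the broad peak of all 3 enzymes (52.3%). They lie above DNase I alone, which has a shallow dip with 42.1% in the bin at 250 bp and 42.8% at the middle.

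Sorting all DNase I regions by the GC content of their DNase I part showed where a single partner is most frequent. Below 36% GC, 84.3% of regions had no partner, 2.44% a Benzonase partner and 1.69% a Cyanase partner. The Benzonase-partner share rose to 6.32% (5.80 to 6.89) at 46 to 48% GC and fell to 0.335% (0.20 to 0.562) at 60% or more. The Cyanase-partner share was highest at 42 to 44% GC, with 3.53% (3.13 to 3.96), and fell to 0.120% (0.0512 to 0.280). Over the same range the share without a partner fell to 0.287% and the share with both partners rose from 11.5% to 99.3%. Single partners were thus most frequent in the range in which DNase I regions passed from mostly unpartnered to mostly shared.

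**Figure D4:**
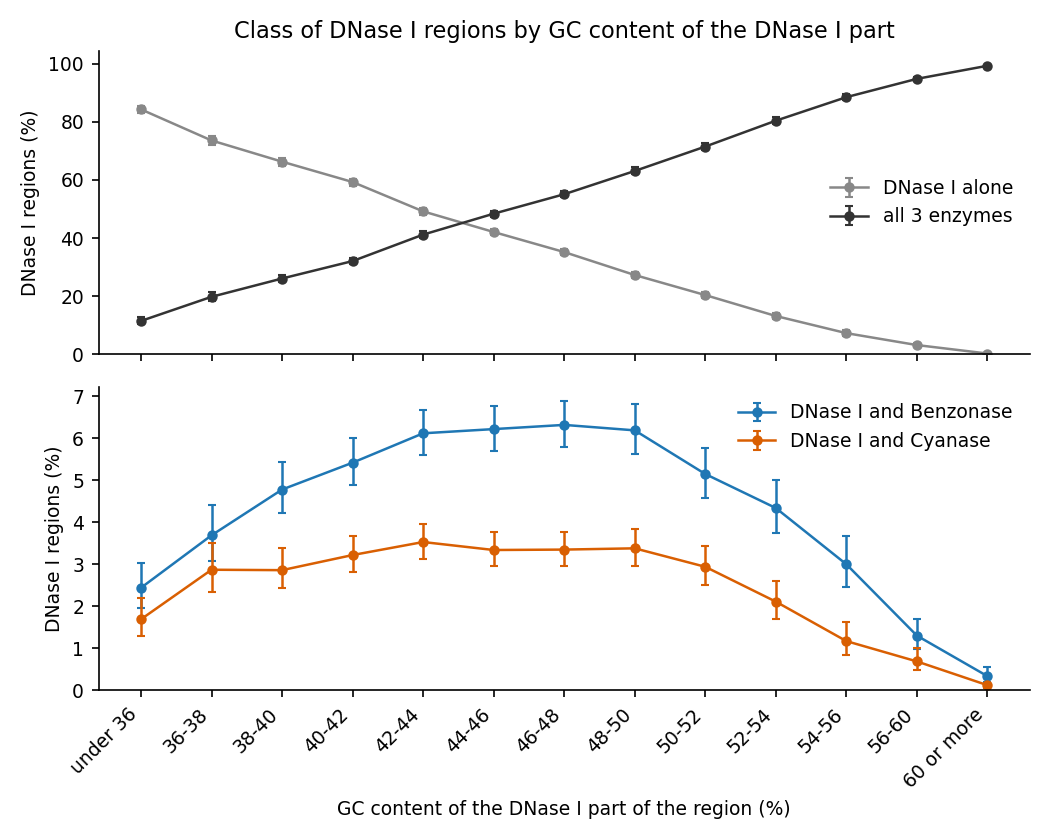
Percentage of DNase I regions in each class against the GC content of the DNase I part of the region, with 95% Wilson intervals. The share without a partner falls and the share with all 3 enzymes rises (top), and both single-partner shares (bottom) are highest at intermediate GC content, peaking at 6.32% for Benzonase and 3.53% for Cyanase.

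CpG dinucleotides separated the groups more clearly than GC content did. In 300 bp centred on the widest DNase I hotspot, Benzonase-partner regions had 1.37 CpG per 100 bp (SD 1.10) and Cyanase-partner regions 1.08 (SD 0.839), a difference of 0.285 (0.231 to 0.340) that was seen on 19 of 19 chromosomes. Regions of DNase I alone had 0.965 and regions with all 3 enzymes 3.02. The difference was found in each range of GC content: 0.127 (0.0446 to 0.210) below 40%, 0.179 (0.107 to 0.251) from 40 to 45%, 0.218 (0.136 to 0.300) from 45 to 50% and 0.498 (0.357 to 0.639) above. The ratio of observed to expected CpG was 0.250 with a Benzonase partner and 0.204 with a Cyanase partner. The latter differed from the 0.206 of DNase I alone by -0.00187 (-0.00878 to 0.00504). With an overlap of 50% of both hotspots required, the difference in CpG per 100 bp became -0.0346 (-0.123 to 0.0538).

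CpG islands, the CpG-dense stretches found at many promoters, were rare among the members. They were touched by 37 Benzonase-partner regions (1.16%, 0.840 to 1.59) and 6 Cyanase-partner regions (0.334%, 0.153 to 0.728), a difference of 0.822 percentage points (0.317 to 1.29), against 0.134% for DNase I alone and 24.4% for all 3 enzymes. With stricter islands the difference was 0.107 (-0.208 to 0.353), and with an overlap of 50% of both hotspots it reversed to -3.16 (-4.33 to -2.10). Under that rule 16.7% of the 556 added Cyanase-partner regions touched an island, compared with 0.295% of the 1354 that were members under both rules. With Benzonase the shares were 5.91% of the 440 added regions and 1.18% of the 2378 that were members under both rules. The CpG-densest island windows of Benzonase-partner regions without an exon are printed below with each CG in capitals. The first lies in an intron of Tmem180 and the second in distal sequence whose nearest TSS is that of Nkd1; they were chosen after their values were seen.
Tmem180, chr19:46423423-46423572, plus strand: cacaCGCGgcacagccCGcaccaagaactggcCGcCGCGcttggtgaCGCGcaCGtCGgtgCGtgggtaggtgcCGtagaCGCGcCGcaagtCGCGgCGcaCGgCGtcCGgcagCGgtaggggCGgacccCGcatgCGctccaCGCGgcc
Nkd1, chr8:90978188-90978337, plus strand: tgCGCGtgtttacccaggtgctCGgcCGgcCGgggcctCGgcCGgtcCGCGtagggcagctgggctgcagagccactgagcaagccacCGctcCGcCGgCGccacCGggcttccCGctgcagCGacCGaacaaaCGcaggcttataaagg
The Tmem180 window held 27 CpG at 75.3% GC and the Nkd1 window 18 at 70.7% GC. The nearest Cyanase hotspots lay 7201 and 66285 bp away.

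To ask whether the groups carry different transcription factor motifs, the same 300 bp were searched on both strands for 17 short motifs and 2 kinds of repeat. No motif lay wholly inside another. A match is a string of letters and not a measured binding site. For the motifs of liver factors the groups differed by less than counting error. FOXA (TGTTTAC), the motif of the forkhead factors that open liver enhancers, was found in 8.59% of Benzonase-partner and 8.25% of Cyanase-partner regions, against 8.15% of all DNase I regions. HNF4 (CAAAGTCCA) was found in 2.09% and 1.56% (2.05% of all), and CEBP (TTGCNNCAA) in 3.16% and 3.07% (3.04%). HNF1 (GTTAATNAT) was found in 2.31% and 2.73% (2.36%), and ONECUT (ATCAAT) in 17.2% and 17.6% (17%). ONECUT was found in 24.1% of regions of DNase I alone and in 12.1% of regions with all 3 enzymes. Both groups lay between these classes. Among these motifs, the largest difference between the groups was 0.533 percentage points (-0.283 to 1.27), for HNF4.

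Motifs of signal-dependent and GATA factors gave intervals that held 0 as well. The nuclear receptor core motif (AGGTCA) was found in 31.4% of Benzonase-partner and 32.4% of Cyanase-partner regions, against 29.5% of all DNase I regions. The glucocorticoid receptor core motif (AGAACA) was found in 27.0% and 26.1% (24.1% of all), STAT (TTCNNNGAA) in 11.3% and 10.8% (11.1%), and AP-1 (TGANTCA) in 12% and 12.1% (11.3%). AGATAA, the motif of GATA factors, was found in 18.6% and 20.8% (17.1%), with 21.9% in regions of DNase I alone and 13.6% with all 3 enzymes. The GATA difference was -2.23 percentage points (-4.57 to 0.0534), and in 150 bp around the same middle it was -1.86 (-3.75 to -0.0539), an interval that left out 0. Promoter motifs set both groups apart from regions with all 3 enzymes. SP1 (GGGCGG) was found in 4.91% and 5.52% of the members against 22.6% of regions with all 3 enzymes, 2.98% of DNase I alone and 13.9% of all DNase I regions. ETS (CCGGAAG) was found in 1.84% and 1.51% against 6.24% with all 3 enzymes (4.05% of all DNase I regions), and CRE (TGACGTCA) in 0.375% and 0.725% against 1.29% (0.895%). In 150 bp the CRE difference between the groups was -0.419 (-0.931 to -0.0440). The motifs NRF1 (GCGCATGCG), YY1 (AAGATGGC) and CTCF (CAGGGGGC) were found in 0.281% and 0.167%, in 1.62% and 0.948%, and in 1.38% and 1.17%. Over all DNase I regions their shares were 0.619%, 1.94% and 1.59%.

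Between the groups, the interval left out 0 for 2 of the 19 features, with no adjustment for the number of features compared. The first was the E-box (CACGTG), the motif of bHLH factors such as USF and the clock proteins, with 6.47% of Benzonase-partner against 4.68% of Cyanase-partner regions (difference 1.79, 0.443 to 3.05). The E-box contains a CpG and its share over all DNase I regions was 6.47%. In 150 bp around the same middle its difference was 0.858 (-0.220 to 1.86). The second was a run of at least 12 A, or T on the printed strand, with 2.69% of Benzonase-partner against 4.74% of Cyanase-partner regions (difference -2.05, -3.25 to -0.966).

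Runs of A are known to stiffen DNA and to disfavour nucleosomes. In these windows they were found in 5.36% of regions of DNase I alone, 2.98% of regions with all 3 enzymes and 3.91% of all DNase I regions. The Cyanase-partner share was close to that of DNase I alone (difference -0.619, -1.55 to 0.497), and the Benzonase-partner share was below it (-2.67, -3.25 to -1.99). The groups differed in the same direction on 16 of 19 chromosomes, at 40 to 45% GC (3.25% against 6.08%) and at 45 to 50% GC (1.6% against 4.64%). Below 40% GC the shares were 8.29% and 9.02%, and above 50% GC 0.879% and 0.706%, and both intervals held 0. In the part covered by DNase I and the partner there were 81.3 runs per megabase with Benzonase and 144 with Cyanase. In the part covered by DNase I alone there were 163 and 222. Over the whole lists, Benzonase and Cyanase hotspots were alike, with 102 and 104 runs per megabase, and DNase I hotspots had 153.

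The longest runs inside the overlap of the hotspots in Cyanase-partner regions, chosen after their values were seen, are shown with the run in capitals. Both lie in distal sequence. The nearest TSS were those of Chrnb4 and Robo1.
Chrnb4, chr9:54903400-54903519, plus strand: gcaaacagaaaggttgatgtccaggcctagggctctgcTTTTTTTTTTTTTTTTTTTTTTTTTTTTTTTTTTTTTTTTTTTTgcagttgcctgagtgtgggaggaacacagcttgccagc
Robo1, chr16:71701616-71701735, plus strand: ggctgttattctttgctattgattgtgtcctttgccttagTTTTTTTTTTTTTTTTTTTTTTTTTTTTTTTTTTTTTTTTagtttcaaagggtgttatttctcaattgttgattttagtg
The runs were 44 and 40 bases long, and the nearest Benzonase hotspots lay 6599 and 37222 bp away. For runs of at least 20 the difference between the groups was -0.198 percentage points, and its interval (-0.813 to 0.311) held 0.

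The difference was not limited to runs of A. Of the dinucleotide steps, counted after the differences above were seen, CC/GG was rarer in Benzonase-partner windows (11.6% against 12.2% of all steps, difference -0.552, -0.745 to -0.359). GA/TC was also rarer, with a difference of -0.220 (-0.335 to -0.105), while the intervals of AA/TT (-0.229, -0.481 to 0.0230) and AG/CT (-0.0358, -0.170 to 0.0986) held 0. The GC step was more frequent (5.54% against 5.09%, difference 0.458, 0.360 to 0.555), as were CA/TG (0.362, 0.237 to 0.488) and AC/GT (0.212, 0.0894 to 0.335). AT (-0.147, -0.253 to -0.0413) and TA (-0.134, -0.238 to -0.0306), which also alternate purine and pyrimidine, were rarer. Steps that stay purine or stay pyrimidine made up 55.7% of steps in Benzonase-partner and 56.7% in Cyanase-partner windows (difference -1.04, -1.28 to -0.794), with 55.9% in regions of DNase I alone. An unbroken tract of at least 20 purines (A or G), or of pyrimidines on the printed strand, was found in 134 Benzonase-partner regions (4.19%) and 137 Cyanase-partner regions (7.64%). The difference of -3.45 percentage points (-4.92 to -2.08) had the same direction on 16 of 19 chromosomes, and with hotspots below the lower quartile of width left out it was -1.65 (-3.45 to -0.00710). Tracts of at least 30 were found in 1.53% and 2.29%, a difference of -0.754 whose interval (-1.64 to 0.0159) held 0. A tract of at least 20 was found in 6.59% of regions of DNase I alone and in 5.98% of regions with all 3 enzymes. The tract share of Cyanase-partner regions exceeded that of Benzonase-partner regions at 40 to 45% GC (7.65% against 4.59%), at 45 to 50% GC (7.12% against 3.29%) and above 50% GC (9.41% against 4.40%), and below 40% GC the shares were 5.88% and 5.44%.

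Regions without DNase I, which are not members, allowed the same comparison in other sequences of the same lists. There, 555 of 8301 regions of Benzonase alone (6.69%) and 967 of 6029 regions of Cyanase alone (16%) held a tract of at least 20, a difference of -9.35 percentage points (-10.4 to -8.29) with the same direction on 19 of 19 chromosomes. CpG per 100 bp was 2.17 for Benzonase alone and 1.47 for Cyanase alone (difference 0.697, 0.626 to 0.768). Runs of at least 12 A were rare in both, at 0.398% and 0.647% (difference -0.249, -0.512 to -0.0133). The direction of all 3 differences was thus that seen between Benzonase-partner and Cyanase-partner regions. The longest tracts without a run of A inside the overlap of Cyanase-partner regions are shown with the tract in capitals, both in distal sequence and chosen after their values were seen.
Cldn1, chr16:26348523-26348642, plus strand: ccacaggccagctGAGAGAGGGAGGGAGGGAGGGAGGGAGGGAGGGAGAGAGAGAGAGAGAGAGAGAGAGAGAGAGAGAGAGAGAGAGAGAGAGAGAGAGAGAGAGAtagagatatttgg
4930473A06Rik, chr4:83165522-83165641, plus strand: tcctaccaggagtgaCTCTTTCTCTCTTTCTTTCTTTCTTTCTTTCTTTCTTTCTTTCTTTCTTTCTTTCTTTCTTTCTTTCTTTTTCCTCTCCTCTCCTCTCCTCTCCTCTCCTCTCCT
In these windows the tract took up 94 and 105 of 120 bases as simple repeats, and the nearest Benzonase hotspots lay 8942 and 4937 bp away.

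**Figure D5:**
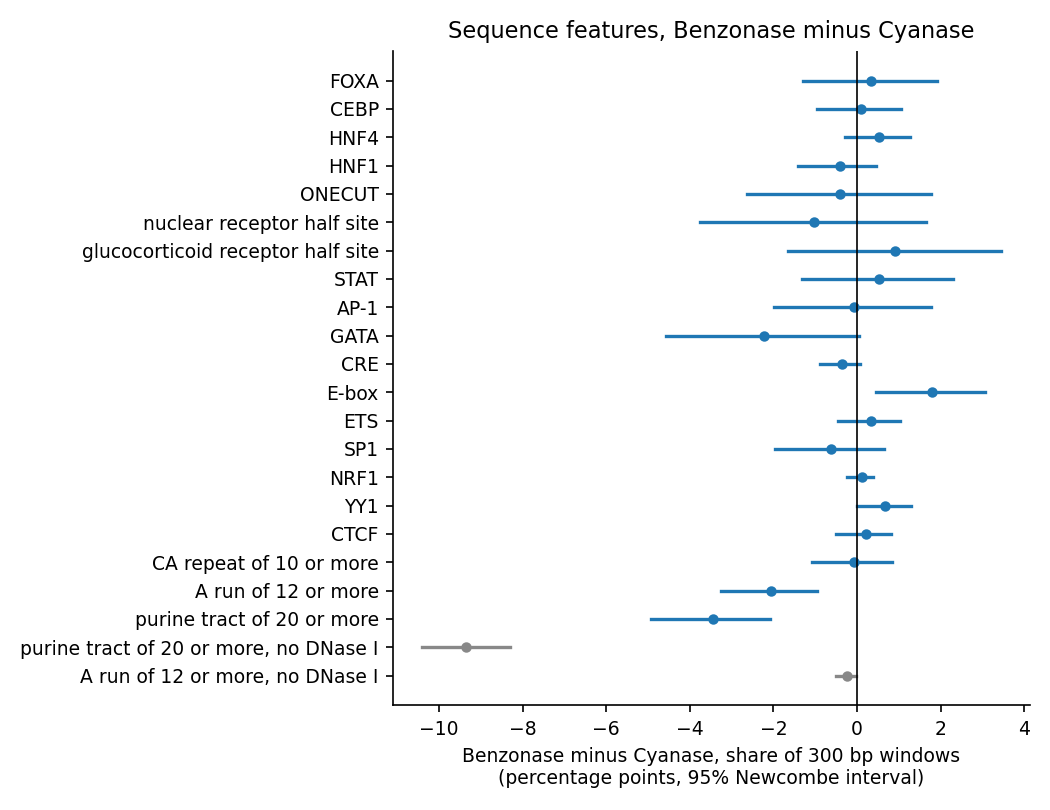
Difference in the share of 300 bp windows with each motif, repeat or tract, Benzonase minus Cyanase, in percentage points with 95% Newcombe intervals. Blue compares Benzonase-partner with Cyanase-partner regions and grey compares regions of Benzonase alone with Cyanase alone. The motifs of liver factors lie around 0, while A runs (-2.05) and purine tracts (-3.45, and -9.35 without DNase I) lie on the Cyanase side.

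Single-partner regions were also counted at the genes of the fixed liver gene lists. Of 21281 protein-coding genes on chromosomes 1 to 19, 12.6% had a member in the gene body or within 10 kb upstream. The count was 9 of 29 for plasma protein genes (31.0%), 10 of 20 for drug and bile acid genes (50%), 9 of 24 for sugar and amino acid genes (37.5%), 8 of 24 for lipid genes (33.3%), 9 of 26 for liver transcription factors (34.6%) and 2 of 14 for clock genes (14.3%). These genes also carry many DNase I regions, and per DNase I region the share over all genes was 6.92% (3157 of 45621). Members were 11 of 150 DNase I regions at plasma protein genes (7.33%, 4.14 to 12.7) and 13 of 146 at sugar and amino acid genes (8.90%, 5.28 to 14.6). They were 10 of 192 at lipid genes (5.21%, 2.85 to 9.32) and 12 of 289 at transcription factor genes (4.15%, 2.39 to 7.12). At clock genes they were 2 of 75 (2.67%, 0.734 to 9.21). Each of these intervals held the 6.92% of all genes. At drug and bile acid genes members were 14 of 111 (12.6%, 7.66 to 20.1). These 14 members lay at 10 genes, and the interval treats regions of the same gene as independent, so it is likely too narrow. Most other DNase I regions of the plasma protein genes (111 of 150) held all 3 enzymes.

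Among plasma protein genes, Benzonase-partner regions lay at Apoa1, the main protein of high-density lipoprotein, Cp (ceruloplasmin), Vtn (vitronectin) and Fga (fibrinogen alpha chain). Cyanase-partner regions lay at Serpina1a, Apoa1 and Ahsg (fetuin-A). Apoa1 thus had one of each kind. Its Benzonase-partner region (chr9:46030999-46031668) lay over an annotated exon 5329 bp upstream of the gene start, and its Cyanase-partner region (chr9:46034280-46034800) lay 2123 bp upstream. In both, the missing enzyme was near, with hotspots 438 and 187 bp away. The distances were 31 bp at Vtn, 43 bp at Ahsg, 249 bp at Fga, 691 bp at Cp and 713 bp at Serpina1a. Of the 11 members at plasma protein genes, 8 had the missing enzyme within 1 kb, compared with 971 of all 4994 members (19.4%). How densely hotspots lie around these genes was not counted.

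At drug and bile acid genes, Benzonase-partner regions were found at the transporters Abcc2 (3 regions), Slco1a1 (2), Slco1b2 (1) and Slc10a1 (1), at the glutathione transferase gene Gstm1 (2), and at the cytochrome P450 genes Cyp2f2 and Cyp7b1. Cyanase-partner regions were found at Cyp2e1, at Cyp27a1, which encodes sterol 27-hydroxylase of bile acid synthesis, and at Gsta3, with 1 region each. The Cyp2e1 region (chr7:147946443-147947106) lay 2863 bp upstream of the gene, with 548 bp covered by both enzymes and the nearest Benzonase hotspot 1941 bp away. The Cyp27a1 region lay in an intron with a Benzonase hotspot 373 bp away. Gstm, Gsta and Slco1 genes have near-identical neighbours, so the placement of tags there is uncertain.

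Among genes of sugar and amino acid metabolism, Ass1, which encodes argininosuccinate synthase of the urea cycle, had 1 Benzonase-partner and 1 Cyanase-partner region. Slc2a2 had 2 Benzonase-partner regions, and Tat, Tdo2, Got1 and Ppargc1a had 1 each. Pck1, the rate-limiting enzyme of gluconeogenesis, had a Cyanase-partner region 7008 bp upstream with a Benzonase hotspot 215 bp away. The missing enzyme was within 1 kb for 10 of the 13 members of this list and for 7 of 14 at drug and bile acid genes. It was that near for 5 of 10 at lipid genes, 4 of 12 at transcription factor genes and 0 of 2 at clock genes, against the 19.4% of all members. Local hotspot density was not counted for these lists.

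At lipid genes, Benzonase-partner regions were found among others at Elovl6 (2), Acaca, Acsl1, Fabp1 and Lipc, and Cyanase-partner regions at Srebf1, Mttp and Acsl1. The Srebf1 region (chr11:60034942-60035475), at the gene of a lipogenic transcription factor, lay 874 bp into the gene and was counted as promoter, with a Benzonase hotspot 384 bp away. The Acaca region, at the gene of acetyl-CoA carboxylase, had its nearest Cyanase hotspot 34076 bp away. Among transcription factor genes, Rora had 3 Benzonase-partner regions and 1 Cyanase-partner region. Nr3c1, Nfib, Onecut1, Nr1h4 and Foxa3 had 1 Benzonase-partner region each, and Nr5a2, Nfia and Ppara had 1 Cyanase-partner region each. The Ppara region lay 1082 bp upstream of the gene, with a Benzonase hotspot 216 bp away. Of the clock genes, Per2 had a Benzonase-partner region 4230 bp upstream and Arntl one in an intron, where the enzymes shared only 39 bp.

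Whole liver also holds endothelial cells, Kupffer cells, stellate cells and cholangiocytes. Of 21 marker genes of these cells, 6 had a member (28.6%, against 12.6% of all genes), and 10 of their 62 DNase I regions were members (16.1%, 9.0 to 27.2, against 6.92% over all genes). A DNase I hotspot lay at the start of 6 of these 21 genes, compared with 26 of 29 plasma protein genes. The share over all genes was not counted, so neither count can be called high or low. The members were 4 Benzonase-partner and 6 Cyanase-partner regions. These 10 members lay at only 6 genes, and the interval treats regions of the same gene as independent, so it is likely too narrow. The lists differed at the gene start itself for a macrophage gene and a Kupffer cell gene. At Emr1, which encodes the macrophage antigen F4/80, a Benzonase-partner region (chr17:57497696-57498290) was centred 116 bp upstream of the start, and the nearest Cyanase hotspot was 78823 bp away. At Clec4f, a Kupffer cell receptor gene, a Cyanase-partner region (chr6:83605872-83606485) was centred 2 bp into the gene, and the nearest Benzonase hotspot was 12148 bp away.

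The endothelial genes Pecam1, Lyve1 and Clec4g had members as well. Pecam1 had 1 Benzonase-partner and 2 Cyanase-partner regions, with the missing enzyme 19601 and 20138 bp away in the pair with the longest overlaps. Lyve1 and Clec4g had 1 Cyanase-partner region each. Reln, expressed by stellate cells, had 2 Benzonase-partner and 1 Cyanase-partner region. The median distance to the missing enzyme was 11922 bp for the 10 members at marker genes of other cells, compared with 438 bp at plasma protein genes, 512 bp at sugar and amino acid genes, 1122 bp at drug and bile acid genes, 1426 bp at transcription factor genes, 1807 bp at clock genes, 2244 bp at lipid genes and 5674 bp over all 4994 members. These distances come from the positions that the rule used, and the gene lists hold 2 to 14 members each. The distance to another hotspot of the partner enzyme was not counted per list, so the part of local hotspot density was not tested. In bulk liver a site that is open in few cells and a site that is weakly open in many cells cannot be told apart.

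The widest members were built on wide DNase I hotspots with ordinary partners. Upstream of Hfe2, which encodes the iron regulator hemojuvelin, a DNase I hotspot of 2557 bp (chr3:96303188-96305744) contained a Benzonase hotspot of 588 bp, and the nearest Cyanase hotspot was 22128 bp away. In an intron of Arid5b a DNase I hotspot of 2434 bp shared 469 bp with Benzonase. Downstream of Cyp2d9, a cytochrome P450 gene with close paralogs, a DNase I hotspot of 1747 bp (chr15:82288598-82290344) contained a Cyanase hotspot of 556 bp. The reverse was seen upstream of Lphn3, an adhesion receptor gene, where a Cyanase hotspot of 1327 bp shared 66 bp with a DNase I hotspot of 467 bp. For the other members among the 5 widest of each group, the genes with the nearest TSS were Commd3 (84636 bp from the gene start), Clec2d (6742 bp) and Rpl13a-ps1 (670321 bp) with Benzonase. With Cyanase they were Aurkb (8282 bp), Lnx2 (18243 bp) and, at a second site, Lphn3 (563339 bp).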

How the data were processed

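Chromatin accessibility was measured in liver of 8-week-old male C57BL/6 mice. Per the deposited headers, the authors pooled the 0.25, 1 and 4 U libraries of Benzonase and of Cyanase and 2 DNase I libraries, and called hotspots on mm9 at a false discovery rate of 0% with input adjustment. The deposited lists give chromosome, start and end, with 0 columns of other samples and no tag number, so the depth behind each hotspot and the replicate spread cannot be given from them. The members and the gene and motif lists were chosen with earlier results of these data known, and purine tracts, dinucleotides and GC-matched comparisons were added after the values were seen.

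Hotspots overlapping by 1 bp were merged with Python 3.11.15 and numpy 2.4.6 (bedtools 2.31.1 gave the same 90879 regions), annotated with GENCODE M1 on NCBIM37 (mm9), and tested on simulated data. In the Cyanase list 2 hotspots ended past their chromosome. CpG islands were 200 bp or longer, above 50% GC and above a CpG ratio (observed to expected) of 0.6 (strict: 500 bp, 55%, 0.65). The sequence was not masked for repeats. A gene was taken as its body plus 10 kb upstream. Shares carry 95% Wilson, differences 95% Newcombe or normal intervals, and no p-value was computed because each enzyme has 1 list. Named genes were the 5 widest members of each group, up to 4 members per gene list and group by overlap, the 3 genes with most members, and the 3 TSS-spanning members with the longest unbroken overlap. Alternatives were other overlap rules, width filters, windows, promoter and island definitions, and chromosomes X and Y. Figures were drawn with matplotlib 3.10.9. Markers F9, Otc, Adgre1 and Vsig4 were not matched on the autosomes by name. Some items of the gene lists are not reported here by name.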

Additional observations from a re-analysis of the deposited data

How the results depend on the processing

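No paired analysis was possible because each enzyme has 1 pooled list. Over the overlap, width, chromosome and distance alternatives, Benzonase-partner regions (2374 to 3302) outnumbered Cyanase-partner regions (1186 to 1910), with the lowest Cyanase-partner number, 1186, when hotspots under the lower width quartile were left out. That filter also moved the promoter difference from 0.487 to 2.86 percentage points. The difference in purine tracts kept its direction, and its interval left out 0, under the 5 alternatives to the overlap rule and chromosomes, ranging from -3.52 to -1.65 percentage points, although tracts of 30 or more gave -0.754 (-1.64 to 0.0159), and that in runs of 12 or more A did so from -1.90 to -1.65. An overlap of 50% of both hotspots reversed the differences in GC content (-0.507), promoter share (-3.76), CpG island share (-3.16) and CpG per 100 bp (-0.0346); it brings in regions that hold all 3 enzymes under the 1 bp rule. The GC difference lost its interval above 0 within exons (0.512), introns (0.394) and downstream sequence (0.382), with fewer regions in each, and was 1.64 within promoters. Stricter islands gave 0.107, and runs of 20 or more A gave -0.198 (-0.813 to 0.311). In a 150 bp window, 13 of 19 motif and repeat differences kept their direction and their side of 0. Reversed signs were found for CEBP (-0.0582), NRF1 (-0.0422) and CA repeats (0.65, 0.0313 to 1.2, an interval that left out 0). The intervals of GATA (-1.86, -3.75 to -0.0539) and CRE (-0.419, -0.931 to -0.0440) came to leave out 0, that of the E-box came to hold it (0.858), and the cause was not tested. The lists carry no scores, so the threshold of the hotspot calls could be varied only through width.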
